A study of Mus musculus with 8 samples.

Results

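The 10 genes described here belong to the p53 pathway and to the step from G1 to S phase of the cell cycle, measured in mouse liver: the inhibitor gene Cdkn1a, the p53 targets Mdm2 and Ccng1, the D-type cyclin genes Ccnd1, Ccnd2 and Ccnd3, the E-type cyclin genes Ccne1 and Ccne2, and the transcription factor genes E2f1 and E2f2. They were taken by symbol as 10 of the 56748 gene IDs in a count table, and 9 of them were among the 13204 genes with enough counts to be tested. The table holds bulk RNA-seq of liver from 8 libraries, all from mice fed a diet rich in both fat and fructose and labelled as MASLD (metabolic dysfunction-associated steatotic liver disease) at 16 weeks. Of these, 4 carry the genotype label miR-93 knockout and 4 the label wild type. The labels give no strain, age or sex, no Cre driver, and do not state that each library is a different mouse. The p-values below therefore cover the spread between libraries, which may be technical. The comparison asks which transcripts differ in liver when miR-93 is missing. The gene of the missing microRNA, Mir93 (ENSMUSG00000065527), had 0 counts in all 8 libraries, as had Mir25 and Mir106b beside it, so the table cannot check the knockout label.

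A cell that commits to divide makes D-type cyclins, which switch on the kinases Cdk4 and Cdk6. These loosen the grip of the retinoblastoma protein on E2F factors, and the freed E2Fs switch on the E-type cyclins and the genes of DNA replication. The protein of Cdkn1a, p21, holds this sequence back by binding cyclin and kinase complexes. Cdkn1a is a classic target of the tumour suppressor p53, and in liver other signals, such as those through Stat3 and the C/EBP and FoxO factors, also act on it. Most hepatocytes of an adult liver rest outside the cell cycle.

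Total counts were 9187279 to 10966019 in the knockout libraries and 5085860 to 7451026 in the wild-type libraries. Transcripts of the mitochondrial genome took 8.08% to 15.03% of counts in knockout and 25.4% to 77.8% in wild type. Both measures separated the genotypes (two-sided exact permutation p = 0.0286 each, the smallest that 70 assignments allow), so depth and genotype cannot be told apart by design. Wild-type replicate 4 was the library with 77.8%, and it had 1131446 counts from all other genes, against 4581983 to 5557023 in the other wild-type libraries. A gene with 0 counts there could have up to 3, which is 1.69 CPM, while in the other libraries 3 counts are 0.219 to 0.455 CPM; such limits cover counting error only. Levels are in CPM, the count scaled to the library's size after its TMM factor. A positive log2 fold change means a higher level in knockout, and ± gives its standard error in edgeR's quasi-likelihood fit, with p-values adjusted by Benjamini-Hochberg over all tested genes and a threshold of 0.05. All 8 hepatocyte markers were detected, with a summed level of 48386 to 54173 CPM in knockout and 50320 to 68631 CPM in wild type. In bulk tissue, fewer cells of a type and less RNA per cell cannot be told apart.

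A microRNA pairs with messenger RNAs mainly through its seed, bases 2 to 8, and lowers their stability or translation. The missing microRNA belongs to a family with the same seed, and several of the genes described here are textbook targets of that family, so the sequences are shown first. Mature sequences are from RefSeq (GRCm38.p6), 5′ to 3′, with the seed in capitals.
miR-93-5p: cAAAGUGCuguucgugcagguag
miR-106b-5p: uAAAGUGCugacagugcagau
miR-17-5p: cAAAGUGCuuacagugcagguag
miR-20a-5p: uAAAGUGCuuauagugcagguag
miR-20b-5p: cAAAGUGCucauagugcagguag
miR-106a-5p: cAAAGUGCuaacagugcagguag
After the seed the sequences shown differ from each other at a few bases in the middle and, for miR-106b-5p, at the 3′ end. A further mature microRNA with this seed, miR-6383, is not shown and differs from them over most of the later bases. The levels of these microRNAs were not analysed here.

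In the longest 3′ UTR that GENCODE M21 annotates for each gene, 6 of the 10 genes held at least 1 match to this seed. The matches are given with 11 bases on each side, the matching bases in capitals, because they tell which of the transcripts carry the letters that miR-93 could pair with.
Cdkn1a: agacctgaataGCACTTTggaaaaatgag
Ccng1: atttcatgaatGCACTTTtaaggtattaa
Ccnd1: tccatttcaaaGCACTTTtggtcagctag
Ccnd2: ccattagaaaaGCACTTTgaaaattttgg
E2f1, first match: gggctctaactGCACTTTtggtgtccttg
E2f1, further match: ccctccagtctGCACTTTgatttgtttcc
E2f2: tcagtggggcaGCACTTTttgcttgttgt
The match in Cdkn1a starts at base 436 of a 3′ UTR of 1334 bases, that in Ccng1 at base 1461 of 2316, that in Ccnd1 at base 925 of 2676 and that in Ccnd2 at base 989 of 5173. E2f1 has its matches at bases 470 and 985 of 1281, and E2f2 at base 1342 of 3020. Mdm2, Ccnd3, Ccne1 and Ccne2 had no such letters in the 3′ UTR used. Of 11579 tested genes with a 3′ UTR, 1690 (14.6%) held a match. Long 3′ UTRs hold one more often: among tested genes with a 3′ UTR within 20% of its length, the share was 13.7% for Cdkn1a, 20.6% for Ccng1, 24.2% for Ccnd1, 41.5% for Ccnd2, 13.4% for E2f1 and 26.6% for E2f2. A match is a description and not a measured site. The 6 genes with a match did not move one way: Cdkn1a rose, E2f2 fell, and Ccng1, Ccnd1, Ccnd2 and E2f1 did not pass the test.

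Cdkn1a (ENSMUSG00000023067) was the member with the largest rise. The knockout libraries held 105, 97, 114 and 102 counts and the wild-type libraries 8, 4, 12 and 0. Scaled for depth, this was 8.55, 8.16, 8.33 and 7.76 CPM in knockout and 1.01, 0.550, 1.82 and 0 CPM in wild type. The knockout libraries lay close together, every one of them above every wild-type library, and the wild-type values sat near the level of a few counts. The log2 fold change was 3.01 ± 0.38 (95% interval 2.19 to 3.84, adjusted p = 0.000293 in edgeR's quasi-likelihood test), an 8.08-fold higher level in knockout. Of the 13204 tested genes, 35 (0.265%) rose by at least as much. The call held under every alternative in which the gene was tested, and without wild-type replicate 4 the log2 fold change was 2.89. When all libraries were thinned to the 1131446 non-mitochondrial counts of the shallowest, the counts were 14, 9, 21 and 15 in knockout and 1, 1, 2 and 0 in wild type, and the gene no longer passed the filter on low counts.

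**Figure D1:**
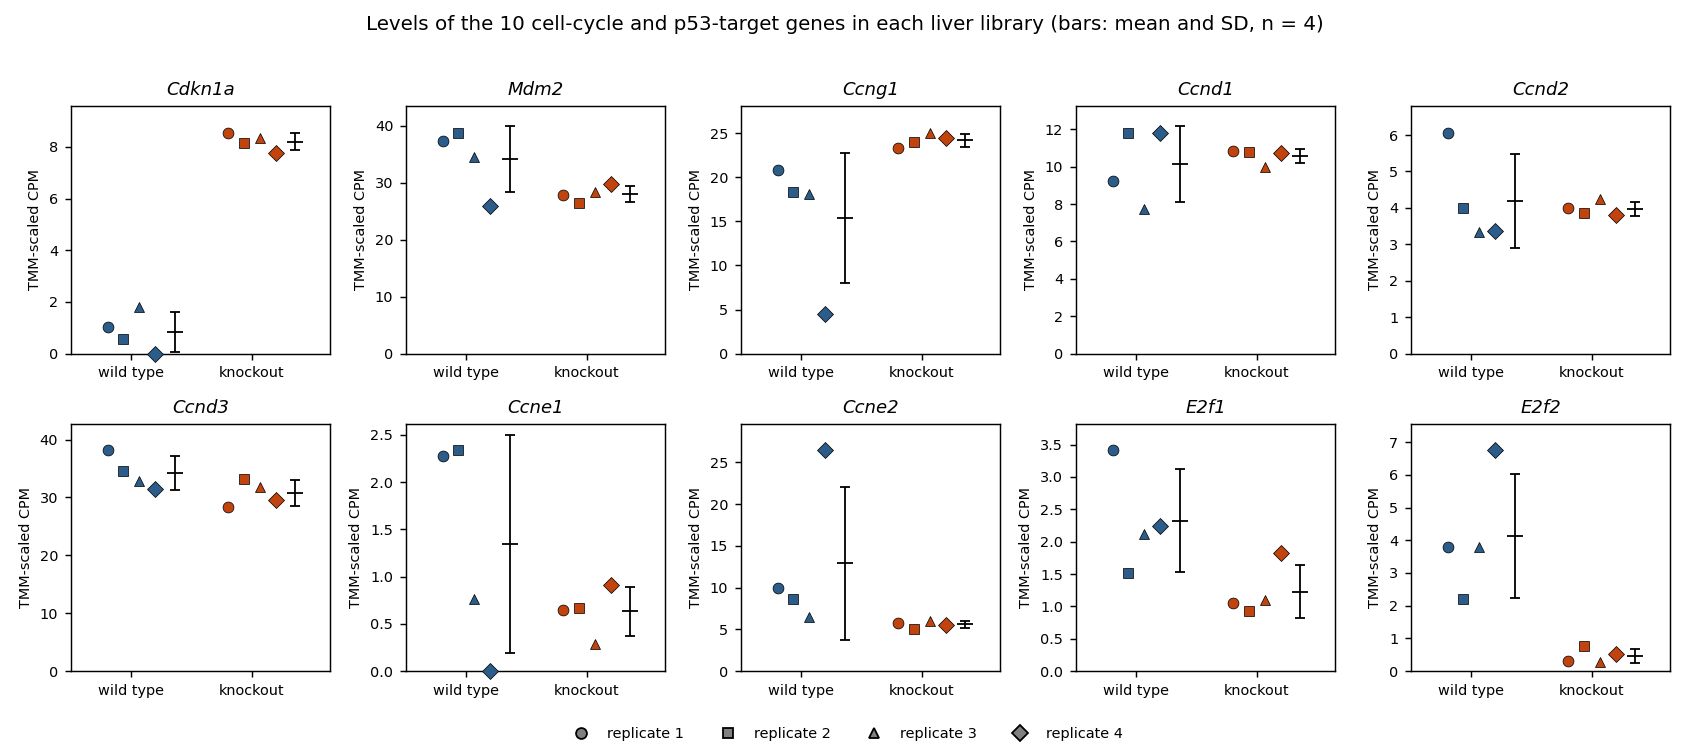
Levels of the 10 genes in each library, in TMM-scaled CPM on linear axes that start at 0, with wild type in blue and knockout in orange; symbols mark the replicate numbers and bars the mean and SD of 4 libraries. Cdkn1a stood at 7.76 to 8.55 CPM in knockout against 0 to 1.82 CPM in wild type, and E2f2 at 0.292 to 0.757 CPM against 2.20 to 6.75 CPM.

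A share of counts within a library does not depend on how libraries are scaled. Of the counts of Cdkn1a, Mdm2 and Ccng1 together, Cdkn1a held 14.3%, 13.9%, 13.5% and 12.5% in the knockout libraries. In wild-type replicates 1 to 3 it held 1.71%, 0.955% and 3.34%, with exact (Clopper-Pearson) 95% intervals of 0.739% to 3.33%, 0.261% to 2.43% and 1.74% to 5.77%. In wild-type replicate 4 it held 0 of 54 counts, with an exact upper bound of 6.60%. The lowest knockout share had an interval of 10.3% to 15.0% (12.5%), which lay above all wild-type intervals. Relative to its fellow p53 targets, then, Cdkn1a was also higher in every knockout library.

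The promoter windows that RefSeq gives for the p53 targets are shown because p53 binds a known consensus, a pair of 10-base half-sites in a row. The windows run from 250 bases before to 50 bases after an annotated start. They are on the gene's strand, with the match to the consensus in capitals. No spacer and at most 1 mismatch over its 20 bases were allowed, and the core C and G of each half-site had to be present. This search was written after the Cdkn1a and Ccng1 windows had been read. For Cdkn1a the window lies on the plus strand at chr17:29090729-29091028 (GRCm38.p6), and the match begins 51 bases before the start annotated in this window and has 1 mismatch. Another annotated start of the gene lies downstream, in the further window named below.
Cdkn1a: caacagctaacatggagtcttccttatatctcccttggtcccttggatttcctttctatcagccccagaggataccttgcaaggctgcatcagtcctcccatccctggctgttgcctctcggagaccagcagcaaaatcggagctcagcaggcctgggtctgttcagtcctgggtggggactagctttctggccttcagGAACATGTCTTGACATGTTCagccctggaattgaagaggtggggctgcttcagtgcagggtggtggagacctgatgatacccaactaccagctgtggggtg
For Ccng1 the window lies on the minus strand at chr11:40755237-40755536, and the match begins 195 bases before the start and has 1 mismatch.
Ccng1: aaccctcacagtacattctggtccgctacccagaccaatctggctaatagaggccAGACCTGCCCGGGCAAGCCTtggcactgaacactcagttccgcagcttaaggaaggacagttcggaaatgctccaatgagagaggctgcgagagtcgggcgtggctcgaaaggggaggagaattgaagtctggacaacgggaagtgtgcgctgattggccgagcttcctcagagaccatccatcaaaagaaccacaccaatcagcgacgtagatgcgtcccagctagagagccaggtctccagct
Of all 32851 windows of this length in the table, 22 (0.0670%) held such a match. A further Cdkn1a window, at chr17:29093519-29093818, and the windows of Mdm2, Ccnd3, Ccne1, E2f1 and E2f2 did not hold these letters. Ccnd1, Ccnd2 and Ccne2 had no window. Bases outside the windows were not searched, so a window without a match does not show that a gene lacks one. The counts do not measure p53 binding at any of these windows.

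Mdm2 (ENSMUSG00000020184), the ubiquitin ligase gene that p53 induces and whose protein degrades p53, did not rise with Cdkn1a. It stood at 27.8, 26.4, 28.3 and 29.8 CPM in knockout and at 37.4, 38.8, 34.6 and 25.9 CPM in wild type. Wild-type replicates 1 to 3 lay above every knockout library, and replicate 4 lay below them. The log2 fold change was -0.31 ± 0.14 (95% interval -0.61 to -0.0038, adjusted p = 0.136). Mdm2 fell when wild-type replicate 4 was left out (-0.39, adjusted p = 0.0066).

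Ccng1 (ENSMUSG00000020326) encodes cyclin G1, a p53-induced cyclin that feeds back on Mdm2. Its level was 23.3, 24.0, 25.1 and 24.5 CPM in knockout and 20.8, 18.3, 18.1 and 4.50 CPM in wild type. All knockout libraries lay above all wild-type libraries, with wild-type replicate 4 far below the rest from 8 counts. With a log2 fold change of 0.54 ± 0.26, the gene missed the threshold (95% interval -0.03 to 1.11, adjusted p = 0.160), and without wild-type replicate 4 it was smaller and passed (0.35, adjusted p = 0.0252). Within the counts of Mdm2 and Ccng1 together, Ccng1 held 45.2% to 47.6% in knockout and 35.8%, 32.0%, 34.3% and 14.8% in wild type. The exact intervals of these shares were 41.5% to 48.9% for the lowest knockout library and 31.4% to 40.4% for the highest wild-type library.

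The rest of the p53 pathway did not follow Cdkn1a as a group. Of 25 tested genes in a list of 30 other p53 targets, 3 rose, 5 fell and 17 did not pass, and the list median was -0.18 against -0.0061 over all tested genes. Of all tested genes, 10.4% rose and 10.7% fell. Those that rose were the death receptor gene Fas (0.93 ± 0.21, adjusted p = 0.00986), Ei24, a gene of the p53 response at the endoplasmic reticulum (0.64 ± 0.16, adjusted p = 0.0163) and Perp, a membrane protein gene of p53-dependent cell death (0.97 ± 0.26). Fas stood at 14.2 to 17.4 CPM in knockout and 5.62 to 12.2 CPM in wild type. Among those that fell were the stress kinase gene Plk3 (-1.89 ± 0.20, adjusted p = 9.55e-05) and the adrenodoxin reductase gene Fdxr (-2.27 ± 0.44, adjusted p = 0.00472). Plk3 stood at 82.9 to 108 CPM in knockout and 277 to 485 CPM in wild type. Fdxr stood at 37.8 to 52.2 CPM in knockout, at 106, 155 and 134 CPM in wild-type replicates 1 to 3 and at 513 CPM in replicate 4, and without that library its fold change was -1.49. The apoptosis genes Bax (-0.57 ± 0.16, adjusted p = 0.0278) and Bbc3 (-0.62 ± 0.20, adjusted p = 0.0484) and the metabolic regulator gene Tigar (-0.58 ± 0.18, adjusted p = 0.0444) also fell; these 3 and Perp were named after their values were seen. The replicate block, a fit with replicate number as an added factor, leaves fewer degrees of freedom. Over all genes it called 643 higher and 624 lower, against 1369 and 1408 without it. A call lost with it therefore need not be a weaker difference. With the block, Ei24, Perp, Bax, Bbc3 and Tigar each lost their call (adjusted p 0.0583 to 0.161). Single libraries also ended these calls: for Ei24 the loss of knockout replicates 2 or 4 or of wild-type replicate 2, for Perp any library other than replicate 1 of each genotype and wild-type replicate 4, for Bax any other than knockout replicate 3 and wild-type replicates 1, 3 and 4, for Tigar any other than knockout replicate 1 and wild-type replicate 4, and for Bbc3 any library other than wild-type replicate 4. Fas lost its call after thinning to equal depth (adjusted p = 0.163). The counts for this list were 5 higher and 10 lower of 26 tested when wild-type replicate 4 was left out, where 17.8% of all genes rose and 17.5% fell.

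Trp53, the gene of p53 itself, stood at 21.3 to 24.9 CPM in knockout and at 30.7, 31.5, 32.5 and 16.3 CPM in wild type. Its log2 fold change was -0.33 ± 0.18 (adjusted p = 0.207). In a list of 12 genes, Trp53 and its regulators, 10 were tested, none rose and 1 fell. This was the DNA damage kinase gene Atr (-1.16 ± 0.24, adjusted p = 0.0063). The list median was -0.26, and its lowest fold change, -2.26, was that of a gene that did not pass. DESeq2 called 2 genes of the list higher and 2 lower, with 1748 higher and 1731 lower of 16336 over all genes. The shares over all tested genes were 10.4% and 10.7%. Mdm4, the Mdm2 partner that inhibits p53, was at -0.46 ± 0.17 (adjusted p = 0.0717), and passed in limma-voom (-0.49, adjusted p = 0.0435), after thinning (-0.63, adjusted p = 0.0332) and without knockout replicate 1 (-0.61, adjusted p = 0.0243). Leaving out wild-type replicate 4 gave 2 higher (Cop1 and Rchy1, both ubiquitin ligase genes that act on p53) and 4 lower (Mdm4, Trp53bp1, Atr and Trp53) of 11 tested. In that fit 17.8% of all genes rose and 17.5% fell.

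None of the D-type cyclin genes passed the test. Ccnd1 (ENSMUSG00000070348), the cyclin that marks the entry of hepatocytes into the cycle after partial hepatectomy, stood at 10.8, 10.8, 10.01 and 10.7 CPM in knockout and 9.22, 11.8, 7.74 and 11.8 CPM in wild type. The knockout values lay inside the wild-type range. Its log2 fold change was 0.09 ± 0.18 (95% interval -0.30 to 0.48, adjusted p = 0.761). Ccnd2 (ENSMUSG00000000184), a D-type cyclin of many proliferating cell types, stood at 3.99, 3.87, 4.24 and 3.81 CPM in knockout and 6.06, 3.99, 3.34 and 3.37 CPM in wild type. The groups overlapped, with wild-type replicate 1 highest. Its log2 fold change was -0.12 ± 0.26 (95% interval -0.69 to 0.44, adjusted p = 0.776).

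Ccnd3 (ENSMUSG00000034165), the D-type cyclin with the highest level here, stood at 28.4, 33.2, 31.8 and 29.5 CPM in knockout and 38.1, 34.5, 32.8 and 31.5 CPM in wild type. Its groups overlapped as well. The log2 fold change was -0.16 ± 0.12 (95% interval -0.43 to 0.10, adjusted p = 0.367). A p that misses the threshold does not show equal levels, and the intervals above give the range of differences that these libraries allow. The shares of the D-type cyclin counts overlapped between the genotypes. Ccnd3 held 65.7% to 69.4% of them in knockout and 67.5% to 74.7% in wild type, and Ccnd1 21.7% to 25.05% and 17.3% to 25.3%. Ccnd2 held 8.08% to 9.23% and 7.23% to 11.3%.

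The partners of the D-type cyclins gave no call either. Of 15 genes of G1 kinases, pocket proteins and their regulators, all tested, 0 passed the threshold in edgeR's test, with a median of -0.13. Over all tested genes in that fit, 10.4% rose and 10.7% fell. At an unadjusted p under 0.05, 2 were higher and 3 lower, and DESeq2 and limma-voom called 0. Cdk4, the kinase of the D-type cyclins, stood at 314 to 351 CPM in knockout and 193 to 355 CPM in wild type (0.12 ± 0.19, adjusted p = 0.682). Rb1, the retinoblastoma gene, was at -0.65 ± 0.24 (adjusted p = 0.0747), with 10.6 to 12.3 CPM in knockout below 12.9 to 30.9 CPM in wild type. Leaving out wild-type replicate 4, 1 gene of this list rose (Cdk7) and 2 fell (Cdk2 and Rb1), when 17.8% of all genes rose and 17.5% fell. The counts were also 1 and 2 without wild-type replicate 1, where Rb1 passed (-0.79, adjusted p = 0.0416).

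Of 7 other inhibitors of cyclin-dependent kinases, 4 were tested and 0 passed in edgeR's test. At an unadjusted p under 0.05 there were 0, and in DESeq2 or limma-voom 0. Of all tested genes, 10.4% rose and 10.7% fell, so 0 of 4 is near the background. Cdkn1b, the gene of p27 and a relative of Cdkn1a, stood at 31.2, 25.4, 25.5 and 25.6 CPM in knockout and 18.9, 25.3, 25.2 and 10.1 CPM in wild type. The knockout libraries lay just above the wild-type libraries, and the log2 fold change of 0.37 ± 0.21 did not pass (adjusted p = 0.236). Cdkn1c, the gene of p57, was at 0.53 ± 0.34 (adjusted p = 0.287). With so few genes tested, the absence of a call does not set Cdkn1a apart from the other inhibitor genes. The differences between their fold changes were not tested.

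Ccne2 (ENSMUSG00000028212), a cyclin of the kinase Cdk2 at the start of S phase, was lower in every knockout library than in any wild-type library. It stood at 5.78, 5.05, 5.99 and 5.56 CPM in knockout and 9.98, 8.66, 6.52 and 26.4 CPM in wild type. The knockout values were close together, and wild-type replicate 4 was far above the other wild-type libraries. The log2 fold change was -1.03 ± 0.36 (95% interval -1.82 to -0.24) and did not pass in edgeR's test (adjusted p = 0.0634). It passed in DESeq2 (-1.09, adjusted p = 0.0326), without wild-type replicate 3 (-1.26, adjusted p = 0.0369) and without wild-type replicate 4, where it was smaller (-0.58, adjusted p = 0.0244).

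Ccne1 (ENSMUSG00000002068), its paralog with the same role, was near the detection limit. It had 8, 8, 4 and 12 counts in knockout and 18, 17, 5 and 0 counts in wild type, which is 0.292 to 0.913 CPM and 0 to 2.34 CPM. The groups overlapped, and the gene did not pass the filter on low counts. Tested without that filter, its log2 fold change was -1.23 (adjusted p = 0.232). It was tested and fell once wild-type replicate 4 was left out (-1.50, adjusted p = 0.0216).

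E2f2 (ENSMUSG00000018983), an activating E2F factor, was the member with the largest fall. The knockout libraries held 4, 9, 4 and 7 counts and the wild-type libraries 30, 16, 25 and 12. The levels were 0.326, 0.757, 0.292 and 0.533 CPM in knockout and 3.79, 2.20, 3.79 and 6.75 CPM in wild type. Every knockout library was below every wild-type library. The log2 fold change was -2.97 ± 0.46 (95% interval -3.99 to -1.96, adjusted p = 0.00128), a 7.85-fold lower level in knockout. Of the tested genes, 68 (0.515%) fell by at least as much. The gene passed the filter on low counts through the wild-type group alone. Its log2 fold change was -2.75 without wild-type replicate 4 (adjusted p = 2.75e-05). After thinning to equal depth it had 0, 1, 2 and 3 counts in knockout and 6, 2, 6 and 12 in wild type and was not tested.

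E2f1 (ENSMUSG00000027490), the other activating E2F of this set, did not pass. It had 13, 11, 15 and 24 counts in knockout and 27, 11, 14 and 4 in wild type, or 1.06, 0.926, 1.096 and 1.83 CPM and 3.41, 1.51, 2.12 and 2.25 CPM. The groups overlapped through knockout replicate 4 and wild-type replicate 2. Its log2 fold change was -0.92 ± 0.39 (95% interval -1.79 to -0.06, adjusted p = 0.115). Of the counts of E2f1 and E2f2 together, E2f2 held 23.5%, 45.0%, 21.1% and 22.6% in knockout and 52.6%, 59.3%, 64.1% and 75.0% in wild type. E2f2 thus held the smaller share of the pair in each knockout library and the larger share in each wild-type library. At 16 to 57 counts per library for the pair, the exact intervals of single libraries were wide, 23.1% to 68.5% in knockout replicate 2 and 38.8% to 77.6% in wild-type replicate 2.

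E2F genes are themselves E2F targets, so the promoter windows were also searched for the E2F motif, as TTTGGCGC, TTTCCCGC, TTTCGCGC or TTTGCCGC on either strand. Among the members with a window, it was found in E2f2 only, in 1 of its 2 windows, at chr4:136172024-136172323 on the plus strand (GRCm38.p6), beginning 39 bases after the start and shown in capitals.
E2f2: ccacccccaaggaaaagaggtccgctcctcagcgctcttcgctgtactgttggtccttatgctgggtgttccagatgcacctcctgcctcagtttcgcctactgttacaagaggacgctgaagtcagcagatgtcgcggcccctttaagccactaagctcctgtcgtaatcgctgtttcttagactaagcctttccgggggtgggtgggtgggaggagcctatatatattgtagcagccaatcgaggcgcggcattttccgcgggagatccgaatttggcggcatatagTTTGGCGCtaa
Of the 32851 windows, 744 (2.26%) held one of these motifs.

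**Figure D2:**
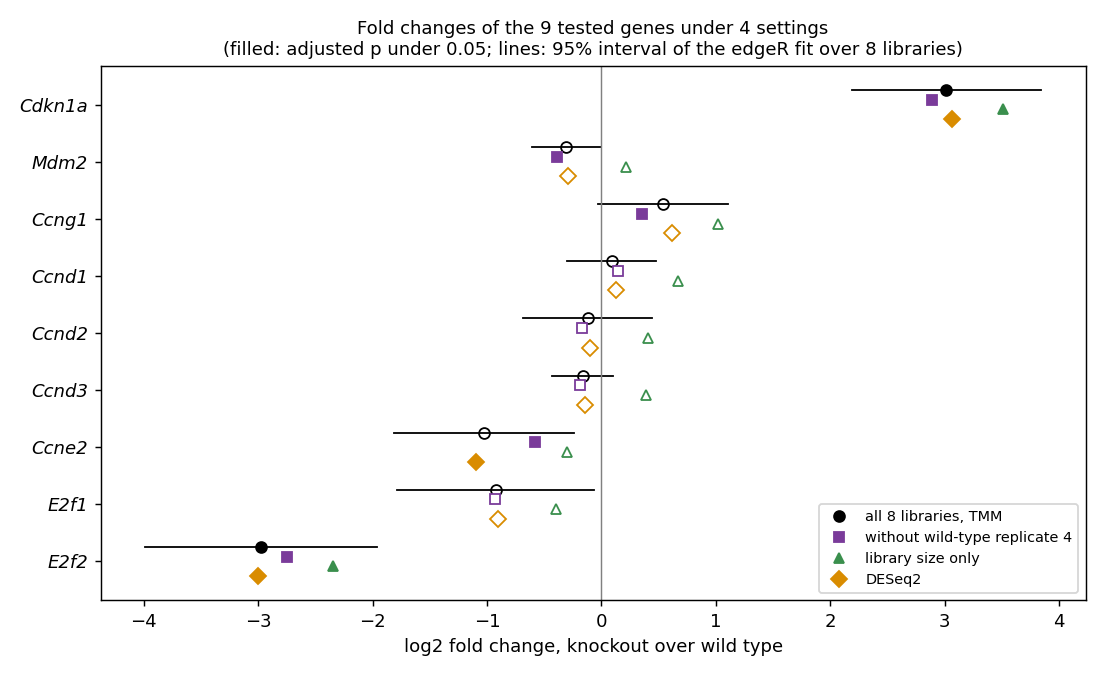
Log2 fold changes, knockout over wild type, of the 9 tested genes under 4 settings, with filled symbols for adjusted p under 0.05 and lines for the 95% interval of the edgeR fit over 8 libraries. Cdkn1a (3.01) and E2f2 (-2.97) were called under all 4 settings, while Mdm2, Ccng1 and Ccne2 changed their call and Mdm2, Ccnd2 and Ccnd3 their sign with the setting.

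Over all members, 1 of 9 tested genes rose (Cdkn1a) and 1 fell (E2f2). Among all 13204 tested genes, 10.4% rose and 10.7% fell, so these counts are near the background. The groups did not overlap with knockout higher for 2 members (Cdkn1a and Ccng1) and with knockout lower for 2 (Ccne2 and E2f2), against 16.3% and 14.0% of all tested genes. Both called genes passed the filter through the genotype in which they are high, apart from 1 wild-type library for Cdkn1a. Without wild-type replicate 4, 2 of 10 members rose and 4 fell, when 17.8% of all 13777 tested genes rose and 17.5% fell. Scaling by library size alone, without TMM factors, moved the median of all genes to 0.54 and the split of calls from 1369 higher and 1408 lower to 561 and 124. Relative to that median, Mdm2 (0.22), Ccnd2 (0.41) and Ccnd3 (0.39) were still on the lower side, Cdkn1a (3.51, adjusted p = 0.00327) stayed called higher and E2f2 (-2.35, adjusted p = 0.0151) lower. Among the other called genes with values here, Stat3, Fdxr, E2f8 and Cebpd kept their calls under that scaling. Plk3, Fas, Ei24, Perp, Bax, Bbc3, Tigar, Atr, E2f3, Tfdp1, Gins2, Tk1, Mcm3, Ccnb2, Mki67, Foxo1, Klf6, Myc and Smad3 lost theirs, and Bax, Tfdp1 and Tk1 changed sign (0.02, 0.06 and 0.05, below the median).

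All 8 other E2F and DP genes were tested, 1 rose and 2 fell, and the median was -0.37. The shares over all tested genes were 10.4% and 10.7%. E2f8, a repressor among the E2Fs, rose from 1.14 to 3.94 CPM in wild type to 4.19 to 6.06 CPM in knockout (1.11 ± 0.34, adjusted p = 0.0396). E2f3, the third activating E2F, fell (-1.09 ± 0.33, adjusted p = 0.0381), and so did Tfdp1, the DNA-binding partner of E2Fs (-0.49 ± 0.14, adjusted p = 0.0339). These 3 calls were near the threshold, and with the replicate block the adjusted p were 0.0705 for E2f3, 0.108 for E2f8 and 0.135 for Tfdp1. Leaving out single libraries also ended them. E2f3 lost its call without any 1 knockout library or wild-type replicate 1 (adjusted p 0.0643 to 0.115), E2f8 without any 1 library other than wild-type replicate 4 (0.0569 to 0.128), and Tfdp1 with any 1 library left out other than knockout replicate 3 and wild-type replicate 4 (0.0572 to 0.120). With all detected genes kept in the fit, Tfdp1 missed the threshold too (0.111). The counts were 1 higher and 4 lower without wild-type replicate 4, when 17.8% of all genes rose and 17.5% fell.

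Of 19 tested genes of DNA replication and S phase, among 24 listed, none rose and 3 fell, with a median of -0.38. Over all tested genes 10.7% fell, so the count is near the background; DESeq2 called 7 genes of the list lower. Gins2, of the replicative helicase complex, stood at 9.82 to 12.1 CPM in knockout and 12.9 to 25.8 CPM in wild type (-1.01 ± 0.19, adjusted p = 0.00347). The thymidine kinase gene Tk1 fell by 0.56 ± 0.13 (adjusted p = 0.0119) and the helicase subunit gene Mcm3 by 1.19 ± 0.31 (adjusted p = 0.0217). Pcna, the sliding clamp gene, was at 0.37 ± 0.17 (adjusted p = 0.144). Without wild-type replicate 4, 1 rose and 8 fell of 22 tested, when 17.5% of all genes fell. Mcm3 and Tk1 lost their calls with the replicate block (adjusted p = 0.0796 and 0.074) and without single libraries, Mcm3 when knockout replicate 2, 3 or 4 was left out or wild-type replicate 1 was (0.0657 to 0.0718) and Tk1 without knockout replicate 4 (0.0525).

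Of 23 genes of G2 and mitosis, 6 were tested and 17 were not, and 2 of the tested genes fell, against 10.7% of all tested genes. Of these 2, Ccnb2 passed the filter on low counts through the wild-type group alone. Mki67 passed it through wild-type replicates 1 to 3 and knockout replicate 2. The filter could thus favour genes high in wild type, so this count is no evidence about the list. Both DESeq2 and edgeR without a filter on low counts called 7 lower, and DESeq2 called 1 higher. Over all genes, DESeq2 called 1731 of 16336 lower and edgeR without the filter 1150 of 25937. Ccnb2, a mitotic cyclin gene, stood at 0.570, 0.926, 0.804 and 0.913 CPM in knockout and 3.03, 2.34, 2.43 and 7.31 CPM in wild type (-2.03 ± 0.44, adjusted p = 0.00831). Its groups did not overlap. Mki67, the proliferation marker Ki-67, stood at 0.651, 1.94, 0.511 and 0.381 CPM in knockout and 11.9, 1.79, 6.98 and 0 CPM in wild type. Here the groups overlapped, and the fall (-2.73 ± 0.77, adjusted p = 0.0276) came from wild-type replicates 1 and 3. Without replicate 1 the fold change was -1.97 (adjusted p = 0.107) and without replicate 3 it was -2.60 (adjusted p = 0.068). The call was also lost without knockout replicate 1, 3 or 4 (adjusted p 0.0781 to 0.0953), in limma-voom (0.0634), without a filter on low counts (0.119) and with the replicate block (0.132). Without wild-type replicate 4, 1 rose and 6 fell of 12 tested, when 17.8% of all genes rose and 17.5% fell.

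Markers of blood cells are given beside the proliferation genes. Of 8 B cell markers, all tested, 7 fell, against 10.7% of all tested genes. Their summed level was 16.9, 77.3, 12.2 and 67.5 CPM in knockout and 512.5, 61.7, 314.8 and 71.4 CPM in wild type. Wild-type replicates 1 and 3, the libraries with the highest B cell level, were also those with the highest Mki67. For E2f2 the order of the values was another. Wild-type replicate 4, with 71.4 CPM of B cell markers, had the highest E2f2, from 12 counts in a library where 3 counts are 1.69 CPM. Its rank above wild-type replicates 1 and 3 (30 and 25 counts) is therefore uncertain. Wild-type replicate 2 had less B cell marker RNA than knockout replicate 2 (61.7 against 77.3 CPM) and more E2f2 (2.20 against 0.757 CPM, from 16 and 9 counts). The 8 T and NK cell markers summed to 5.41 to 7.92 CPM in knockout and 10.2 to 18.9 CPM in wild type, with 3 of the 5 tested lower, and 7 erythroid markers to 306 to 416 and 365 to 548 CPM, with 2 of the 5 tested lower. The part of these cells in the values of E2f2, Ccnb2 and Mki67 was not tested.

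**Figure D3:**
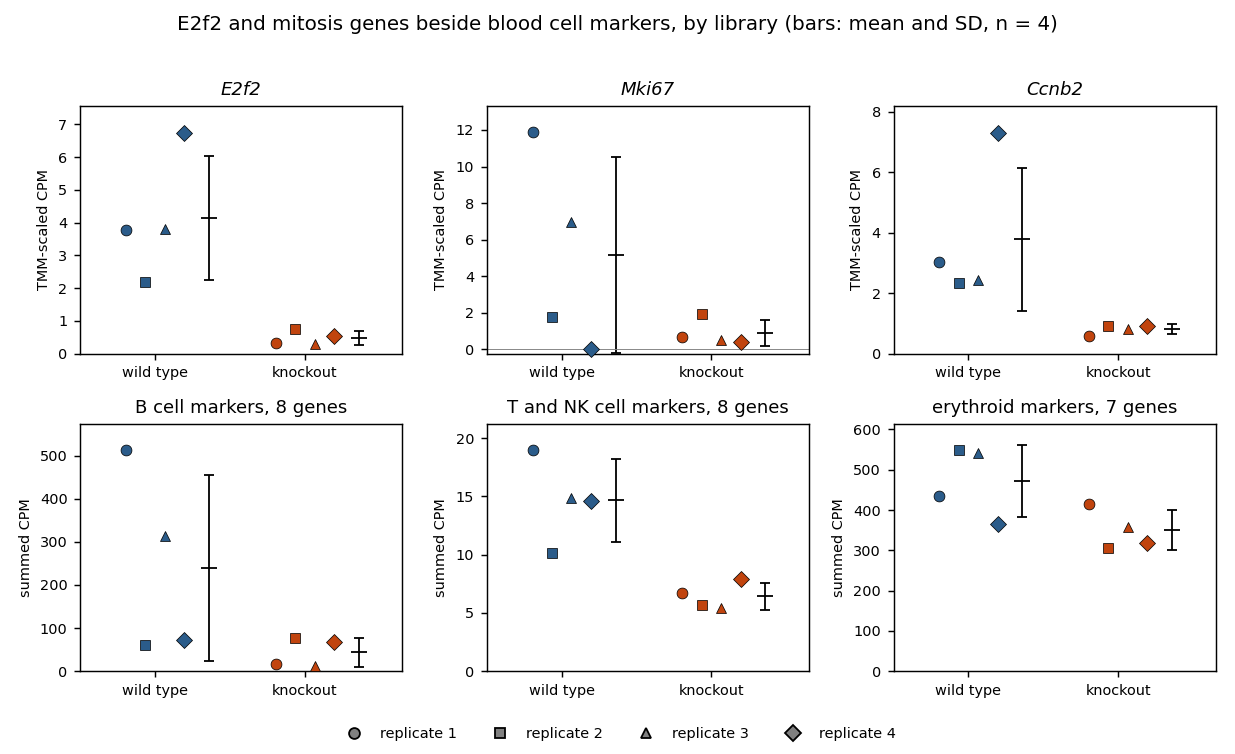
E2f2, Mki67 and Ccnb2 in TMM-scaled CPM (upper row) beside the summed CPM of B cell, T and NK cell and erythroid markers (lower row) in each library, with symbols for replicate numbers and bars for the mean and SD of 4 libraries. Mki67 was highest in wild-type replicates 1 and 3 (11.9 and 6.98 CPM), which also had the most B cell marker RNA (512.5 and 314.8 CPM). The highest E2f2 value was in wild-type replicate 4 (6.75 CPM, from 12 counts).

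Markers of the other resident liver cells are given beside Cdkn1a. For comparison, 10.4% of all tested genes rose and 10.7% fell. The 9 Kupffer cell markers summed to 145 to 178 CPM in knockout, with 5 higher by the test. In wild type they summed to 58.6, 63.1 and 46.4 CPM in replicates 1 to 3 and to 202 CPM in replicate 4. The 8 sinusoidal endothelial markers summed to 92.3 to 179 CPM in knockout and 54.9 to 82.7 CPM in wild type, with 5 higher. The 6 cholangiocyte markers summed to 31.7 to 33.2 CPM in knockout and 10.1 to 20.3 CPM in wild type, with 1 of the 2 tested higher. The 10 neutrophil and myeloid precursor markers summed to 10.7 to 17.8 CPM in knockout and 5.76 to 15.2 CPM in wild type, the highest in replicate 4. Of these markers, 1 of the 3 tested was higher and 3 of the 10 were at 0 in every library. The 8 stellate cell and fibroblast markers summed to 116 to 132 CPM in knockout and 106 to 214 CPM in wild type, with 3 lower. Here too wild-type replicate 4 was the highest, with the other wild-type libraries at 132, 106 and 124 CPM. Their part in the rise of Cdkn1a was not tested.

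Among 20 regulators that act on Cdkn1a or on the G1 cyclins without p53, all tested, 4 rose and 2 fell, with a median of 0.22. The shares over all tested genes were 10.4% and 10.7%, so the number that fell is at the background. Stat3, the factor that carries interleukin-6 signals in liver, stood at 92.5, 100.3, 103 and 108 CPM in knockout and 49.1, 48.2, 44.4 and 47.2 CPM in wild type. The groups were well apart, and the rise of 1.09 ± 0.12 (adjusted p = 0.000119) was called under every alternative run. Foxo1, a factor restrained by insulin that can induce Cdkn1a, rose (0.45 ± 0.12, adjusted p = 0.0224). Cebpd, a C/EBP factor gene of the acute phase (0.87 ± 0.25, adjusted p = 0.0312) and Klf6, a zinc finger factor gene (0.73 ± 0.23, adjusted p = 0.0487), both named after their values were seen, rose as well. The calls of Foxo1, Cebpd and Klf6 were lost with the replicate block (adjusted p = 0.121, 0.0605 and 0.165). Foxo1 also lost it with any 1 library left out other than replicate 1 of each genotype and wild-type replicate 4, Cebpd without any 1 knockout library or wild-type replicate 2 or 3, and Klf6 without any 1 library other than knockout replicate 2 or wild-type replicate 4. Myc, a growth factor-induced regulator that represses Cdkn1a, stood at 2.44 to 4.15 CPM in knockout and 4.70 to 9.90 CPM in wild type and fell (-1.25 ± 0.28, adjusted p = 0.0106). Smad3, of the TGF-beta pathway, fell too (-0.81 ± 0.17, adjusted p = 0.00641; 0.0677 after thinning to equal depth). Without wild-type replicate 4, 5 rose and 4 fell, when 17.8% of all genes rose and 17.5% fell. These are levels of messenger RNA, and neither their protein activity nor any effect on Cdkn1a was measured.

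**Figure D4:**
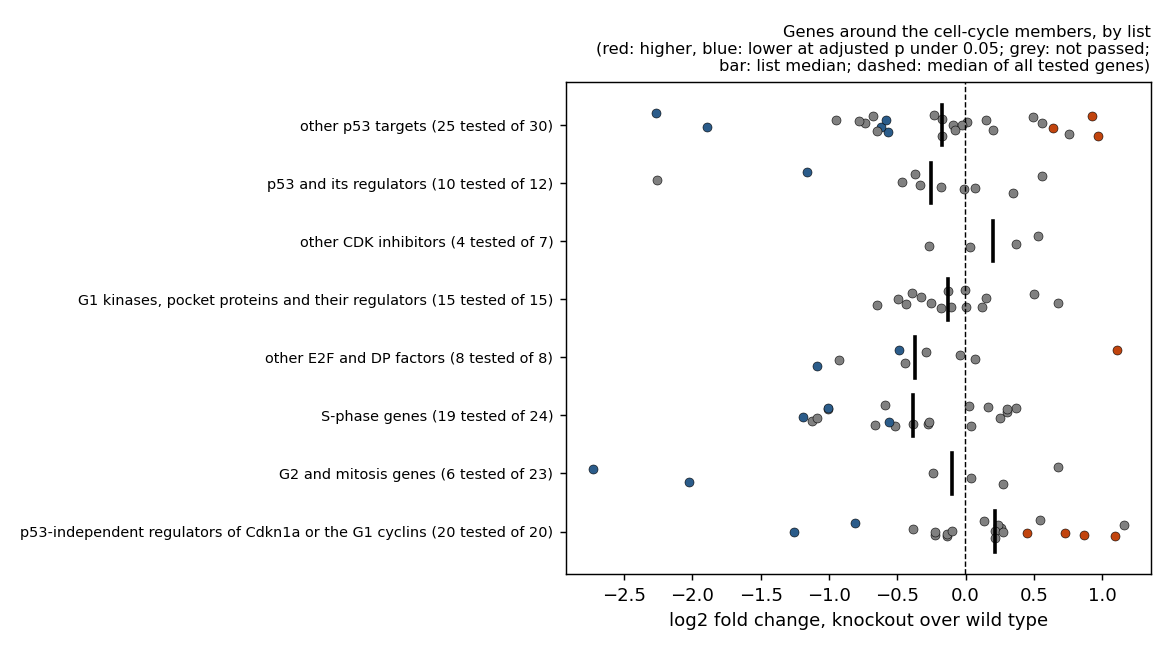
Log2 fold changes, knockout over wild type, of the tested genes in 8 lists around the cell-cycle members, 1 point per gene, with higher genes in red, lower genes in blue, genes that did not pass in grey, list medians as bars and the median of all tested genes as a dashed line. The list medians ran from -0.38 (S-phase genes) to 0.22 (p53-independent regulators). The highest single point, a p53-independent regulator that did not pass, was at 1.16, against 3.01 for Cdkn1a.

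Levels of different genes were compared per kilobase of annotated exon (RPKM, from TMM-scaled counts; mean ± SD, n = 4). In knockout, Ccng1 came first at 6.89 ± 0.215 RPKM, then Mdm2 at 5.52 ± 0.272, Ccnd3 at 3.51 ± 0.249, Cdkn1a at 2.31 ± 0.0934, Ccnd1 at 2.25 ± 0.0821 and Ccne2 at 1.601 ± 0.116. Cdkn1a and Ccnd1 did not differ beyond their spread. Ccnd2 (0.423 ± 0.0202), E2f1 (0.389 ± 0.129), Ccne1 (0.238 ± 0.0962) and E2f2 (0.0977 ± 0.0440) followed, and Ccnd2 and E2f1 were within their spread of each other. In wild type the order began with Mdm2 (6.72 ± 1.14), Ccng1 (4.39 ± 2.10), Ccnd3 (3.90 ± 0.329), Ccne2 (3.69 ± 2.61) and Ccnd1 (2.15 ± 0.429). Ccng1, Ccnd3 and Ccne2 were not separated by their spread, and Ccnd1 lay within the SD of Ccne2. The Ccne2 mean was raised by wild-type replicate 4 (7.56 RPKM, against 2.85, 2.48 and 1.87 in replicates 1 to 3). E2f2 (0.846 ± 0.389), E2f1 (0.737 ± 0.251), Ccne1 (0.504 ± 0.434), Ccnd2 (0.445 ± 0.136) and Cdkn1a (0.238 ± 0.217) closed the order. From E2f2 to Ccne1 each differed from the next gene by less than its own SD. By mean, Cdkn1a thus ranked last of the 10 genes in wild type, and E2f2 ranked last in knockout. The rank of Cdkn1a was within its spread, as its mean differed from that of Ccnd2 by less than its SD. In wild-type replicate 3 Cdkn1a (0.512 RPKM) lay above Ccnd2 (0.355) and Ccne1 (0.285).

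Protein-coding genes whose levels ran closely alike to Cdkn1a over the 8 libraries included Rpl13, Vps37c, Gda and Tspo, with Pearson correlations of log2 CPM of 0.996, 0.992, 0.992 and 0.991 among 7067 genes compared. For Ccnd1 they were Nagpa (0.927), Nr2c2 (0.912), Ddx50 (0.883), Ctdsp2 (0.869) and Ubap2l (0.866) among 7066. These correlations are descriptions over 8 libraries that share genotype and depth. Rpl13, a ribosomal protein gene, stood at 242 to 257 CPM in knockout and 135 to 191 CPM in wild type, a smaller fold difference than that of Cdkn1a, and in both genes wild-type replicate 4 was lowest and wild-type replicate 2 next.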

How the data were processed

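The authors deposited raw read counts per Ensembl gene, 1 column per library, with no normalization. Per the submitters' processing notes, reads were trimmed with cutadapt 4.2 and aligned with STAR 2.7.10a to mm39. The counting tool, its strand setting and its treatment of reads that match several genes are not given in the sources used here. GENCODE M21, built on GRCm38, gave a symbol to 52073 IDs, along with exon lengths and 3′ UTRs. The other 4675 IDs took 0.332% to 1.57% of a library's counts, and no gene coordinates are given beyond those of the RefSeq promoter windows.

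Knockout was tested against wild type over all genes with edgeR 4.0.16 in R 4.3.3 (robust quasi-likelihood fit, TMM factors, filterByExpr on genotype, two-sided), with Benjamini-Hochberg adjustment over the 13204 genes tested. Single values per library were compared by exact permutation. The fit was tested on simulated counts first. Marker lists are given as summed CPM per library, with no test of the sum, and as counts of genes called in the fit over all genes. The 10 members and all lists (8 of pathway genes, 9 of markers) were chosen with earlier results of these data known. The text names the members, up to 4 called genes of each pathway list with the smallest p, and the 5 protein-coding genes of mean CPM at least 10 that correlate best with Cdkn1a and with Ccnd1 (log2 CPM, prior count 2). Of these, 1 gene is not reported here. Uncalled genes named beside a list (Trp53, Mdm4, Cdk4, Rb1, Cdkn1b, Cdkn1c and Pcna) were picked for their role after their values were known. Alternatives were 3 other scalings, mitochondrial genes left out, other filters on low counts, DESeq2 1.42.0, limma-voom (limma 3.58.1), thinning to equal depth, a replicate block and each of the 8 libraries left out in turn.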

Additional observations from a re-analysis of the deposited data

Results flagged for a closer look

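Among the members' levels and the mitochondrial share, 22 groups of 4 libraries were examined for a library far from the other 3, measured as its gap to the nearest library over the whole range of the group, and judged by Dixon's 95% critical value. Chance passes about 1 in 20 such groups. Ccng1 in wild-type replicate 4 stood at 4.50 CPM, from 8 counts, with the other wild-type libraries at 18.1 to 20.8 CPM (ratio 0.8294). Ccnd1 in knockout replicate 3 stood at 10.01 CPM, with the other knockout libraries at 10.7 to 10.8 CPM (ratio 0.882), a gap of less than 1 CPM in a group whose whole range was small.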

How the results depend on the processing

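Of the members, Cdkn1a and E2f2 kept their direction and call under the 17 alternatives in which they were tested. After thinning to equal depth neither was tested, and 0 members were called higher and 0 lower. DESeq2 called 2 members lower, E2f2 and Ccne2. Leaving out 1 library in turn gave 1 to 2 members higher and 1 to 4 lower, the highest counts without wild-type replicate 4. Over all genes, 1369 were higher and 1408 lower, against 561 and 124 with library size only, 767 and 812 after thinning, and 760 to 2446 and 728 to 2407 with 1 library left out, the highest without wild-type replicate 4. With library size only, which moves the median gene to 0.54, Mdm2 read 0.22, Ccnd2 0.41, Ccnd3 0.39, Tfdp1 0.06 (0.0595), Tk1 0.05 (0.0499), Bax 0.02 (0.0185), Trp53 0.17, Mdm4 0.10 (0.0957) and Rb1 0.01 (0.0147), each opposite in sign to its reported value. With 1 library left out, Ccnd1 ran from -0.03 (-0.025, without wild-type replicate 3) to 0.20, Ccnd2 from -0.24 to 0.15 (without wild-type replicate 1) and Cdk4 reached -0.03 (-0.0327, without wild-type replicate 4). The cause of these shifts was not tested. Depth limits Ccne1, E2f1 and E2f2, which had at most 30 counts in any library, and every value of wild-type replicate 4.

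The labels number the replicates alike in both genotypes. Same-numbered libraries did not deviate together (correlations -0.19, -0.03, -0.07 and -0.09), so the numbers were not taken to pair them. With the replicate block, 643 genes were higher and 624 lower, and of the members Cdkn1a (3.13, adjusted p = 0.00523) and E2f2 (-3.03, adjusted p = 0.0135) were called.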
